A study of Rattus norvegicus with 6 samples.

Results

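A set of 43 genes of the rat that carry organic ions, urate, sulfate, nucleosides and drugs across kidney cell membranes was described in kidneys of rats given Bailing Capsule and of diabetic rats. The 43 genes were listed by family, and a probe was taken as a member when the unversioned RefSeq accession that the array file gives it belonged to a listed gene. This gave 51 probes of the 30367 on the array, and 43 of the 15168 genes named there. The Bailing Capsule group held 3 samples of kidney total RNA from rats aged 21 weeks, labelled as treated with that preparation, a medicine made from a cultured fungus. The diabetic group held 3 samples from diabetic rats, also aged 21 weeks. Each sample was labelled with the dye Cy3 and read on an Agilent single-colour array. The labels used here give no strain, sex, dose, length of treatment or way of making the rats diabetic, and do not say whether the treated rats were diabetic too. They do not say either that the 3 samples of a group came from separate animals, so a p-value here covers the spread among these arrays alone, and that spread may be technical.

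The proximal tubule clears drugs, toxins and metabolic waste by taking organic anions and cations up from the blood side and passing them to the urine through exchangers and ATP-driven pumps. Carriers of the SLC22 family do most of the uptake, the SLC47 exchangers and the ABC pumps do much of the export, and separate carriers move urate in both directions. The SLC13 and SLC26 carriers reclaim sulfate and citrate, and the SLC28 and SLC29 carriers reclaim nucleosides.

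Levels are given as log2 of the processed signal minus that array's 75th percentile, so that 0 is the signal below which 75% of the probes of that array lie. Differences are Bailing Capsule minus diabetic on this log2 scale. Levels of different probes cannot be ranked against each other, because probes bind with unequal strength. Of the 30367 probes, 64.5 to 73.5% passed the scanner's test for signal above background, depending on the array, and no spot was saturated. The array headers gave 2 scan times. The 3 Bailing Capsule arrays and the first diabetic array were scanned together, and the other 2 diabetic arrays in the second scan. A fit with the scan as a block therefore sets the 3 Bailing Capsule arrays against the first diabetic array alone, and its values are given beside the unblocked ones where they bear on a result. Summed levels of first and second segment proximal tubule markers were 253 to 468 times the 75th percentile signal in Bailing Capsule kidneys, and 289 to 460 times in diabetic kidneys. All 11 of those markers were tested and none passed, with a median difference of -0.16, and of 0.1 with the scan as a block. Of the 11, 7 had differences below 0 and 4 above it. Slc5a12 was at -1.03 (limma, adjusted p = 0.206), with every Bailing Capsule array below every diabetic array. Slc7a7 was at 0.74, with every Bailing Capsule array above every diabetic array.

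Of the 43 genes, 36 were tested and none passed an adjusted p of 0.05 (limma, Benjamini-Hochberg over 17892 features), against 0.319% of all features, 0.129% higher and 0.19% lower. Of the 36, 35 were above background on all 6 arrays, and Slc22a13 was kept through its Bailing Capsule arrays alone, so the counts are also given without it. The lowest adjusted p among the 36 was 0.175. At an unadjusted p under 0.05 there were 9 genes, or 25%, with 3 higher and 6 lower in Bailing Capsule kidneys. Without Slc22a13 there were 8 of 35, or 22.9%, with 2 higher and 6 lower. Among all features that share was 7.55%, with 3% higher and 4.54% lower. The 3 arrays of each group did not overlap for 12 genes, or 33.3%, with 4 higher and 8 lower, against 11.6% of all features, 4.58% higher and 7.06% lower. Without Slc22a13 there were 11 of 35, or 31.4%, with 3 higher and 8 lower. The members were chosen with earlier results of these data known, so these shares describe the list and measure no excess over all features. The median difference was -0.23 over the 36 genes and -0.09 over all features. Differences were below 0 for 22 of the 36 genes, or 61.1%, against 62.1% of all features. Without Slc22a13 the share was 62.9%. With the scan as a block, 0.212% of 17883 features passed and no member did. In that fit 4.92% of features had an unadjusted p under 0.05, as did 3 of the 36 tested genes. Those 3, all among the 9 above, were Slc17a1, Slc17a3 and Slco1a6. The blocked difference rests on the first diabetic array alone. The blocked median was -0.12 over the 36 genes, -0.19 without Slc22a13, and 0.09 over all features. The 95% interval of a member's difference reached 0.52 to 1.51 to either side, or 1.01 at most without Slc22a13, with a median of 0.67. These intervals are not adjusted for the number of features, and a difference had to be larger than they reach to pass the adjusted test. In whole kidney RNA, fewer cells of a type and less RNA per cell cannot be told apart.

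**Figure D1:**
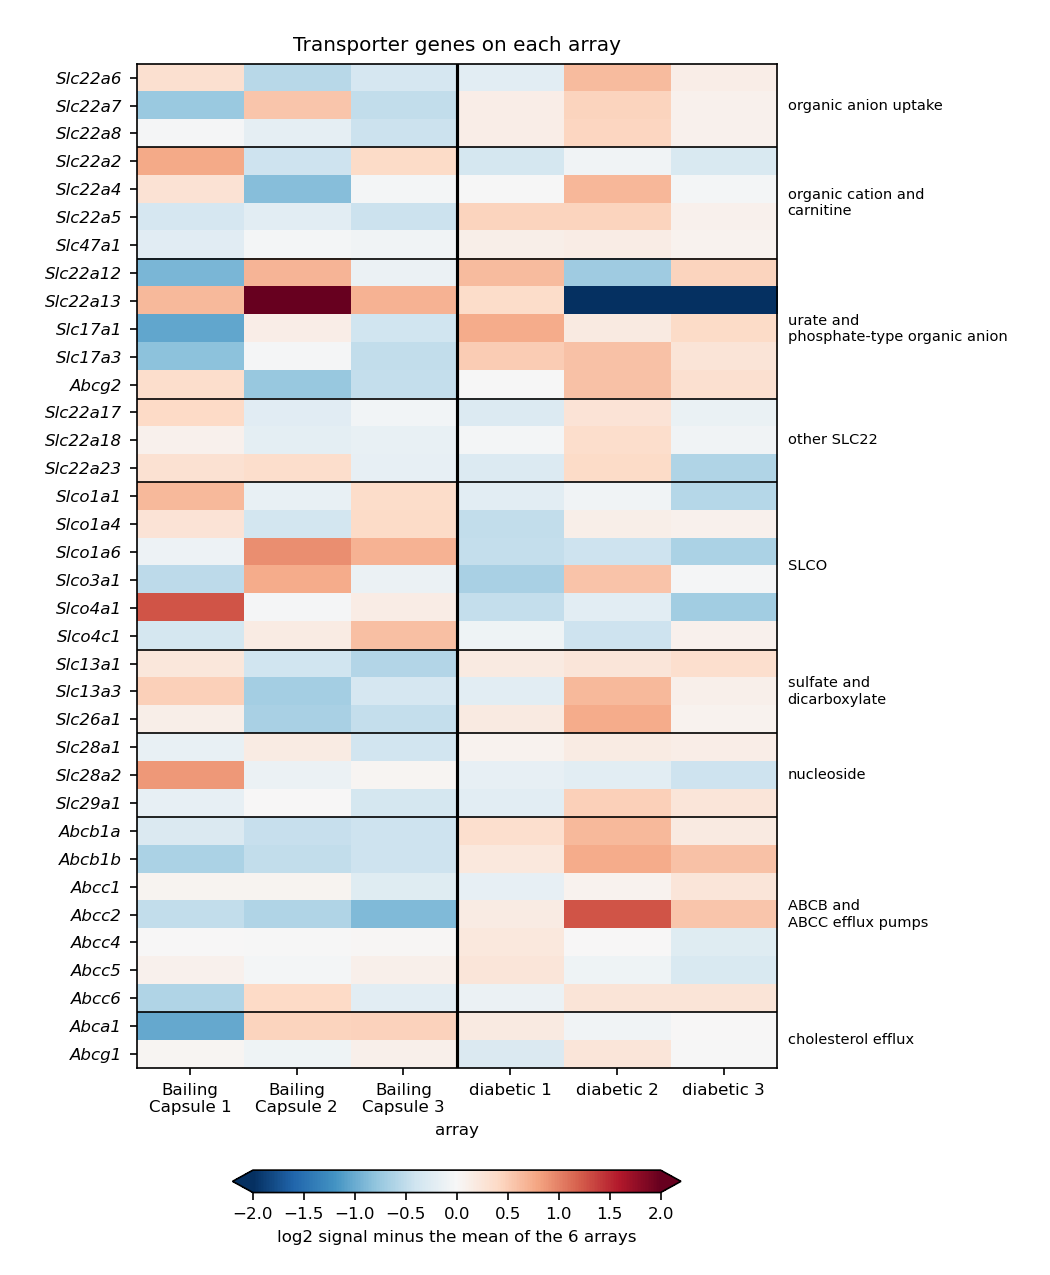
Level of each of the 36 tested genes on each of the 6 arrays, as the difference in log2 units from the gene's mean over the arrays, with genes grouped by family and Bailing Capsule arrays left of diabetic arrays. Abcc2, Abcb1b and Abcb1a are below their mean on the 3 Bailing Capsule arrays. Slco1a6 is below its mean on the 3 diabetic arrays and on the first Bailing Capsule array. Values past the ends of the colour bar, all of Slc22a13, take its end colours.

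The 2 members with the smallest p-values were export pumps. Abcc2 makes the pump of the urine-facing membrane that expels conjugated organic anions. Its log2 level was 1.73, 1.63 and 1.34 on the Bailing Capsule arrays, against 2.39, 3.49 and 2.78 on the diabetic arrays. Every Bailing Capsule array was below every diabetic array. The means were 1.57 ± 0.20 in Bailing Capsule kidneys and 2.89 ± 0.56 in diabetic kidneys (SD, n = 3 each), a difference of -1.32 (SE 0.32, 95% interval -2.02 to -0.62) that is 2.5-fold in size. The limma test gave an unadjusted p of 0.00179 and an adjusted p of 0.175. Without the first diabetic array the difference was -1.57 and passed, with an adjusted p of 0.0449 in limma, where 1.09% of all features passed. That fit sets Bailing Capsule arrays of the first scan against diabetic arrays of the second, so group and scan cannot be told apart. With the scan as a block it was -0.82. The probe is printed at 10 spots, whose spread on an array was 0.03 to 0.15. Summed levels of liver marker genes were also lower in the Bailing Capsule kidneys, at 2.48, 2.91 and 2.59 times the 75th percentile signal, against 3.74, 5.48 and 4.99 times in diabetic kidneys. Of 10 liver markers 7 were tested, 6 had a difference below 0 and 6 an unadjusted p under 0.05, while Apoa1 and Tat were above background on no array. These 2 counts overlap without being the same 6 genes, and none of the 7 passed the adjusted test. Ttr was at -0.68 with an unadjusted p of 0.164 in limma, and Cyp2c11, a liver cytochrome P450, went the other way at 1.93 (limma, unadjusted p = 0.00153, adjusted p = 0.163), with every Bailing Capsule array above every diabetic array. The hepatocyte uptake carrier Slco1b2 was above background on 0 of 6 arrays and the bile salt pump Abcb11 on 1 of 6. The part of these markers in the Abcc2 difference was not tested.

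Abcb1a and Abcb1b are the rodent genes for P-glycoprotein, the pump that expels many drugs, and they lie next to each other on the chromosome. Abcb1b had -1.39, -1.24 and -1.17 on the Bailing Capsule arrays, against -0.55, -0.01 and -0.16 on the diabetic arrays. The groups did not overlap, with Bailing Capsule arrays all lower. The difference was -1.03 (SE 0.25, 95% interval -1.59 to -0.46; limma, unadjusted p = 0.00228, adjusted p = 0.196), and -0.71 with the scan as a block. A dimmer Abcb1b probe read -4.51, -3.94 and -3.46 on the Bailing Capsule arrays, against -2.14, -1.5 and -1.32 on the diabetic arrays. Tested as a single probe without the scan as a block, it had a difference of -2.32 (SE 0.34), which is 4.98-fold in size. It passed with an adjusted p of 0.0201 in limma, where 0.303% of 19819 probes passed and 7.75% had an unadjusted p under 0.05. Its diabetic value nearest the Bailing Capsule ones, -2.14, came from the only diabetic array of the first scan. The mean of both probes gave -1.67 with an adjusted p of 0.0541. Abcb1a had 1.11, 0.94 and 0.99 on the Bailing Capsule arrays, against 1.74, 2.06 and 1.59 on the diabetic arrays. All Bailing Capsule arrays were again lower, with a difference of -0.78 (SE 0.25; limma, unadjusted p = 0.00971, adjusted p = 0.342), and of -0.73 with the scan as a block. Probe sequences were not used here, so whether probes of these close relatives bind each other's transcripts was not tested.

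**Figure D2:**
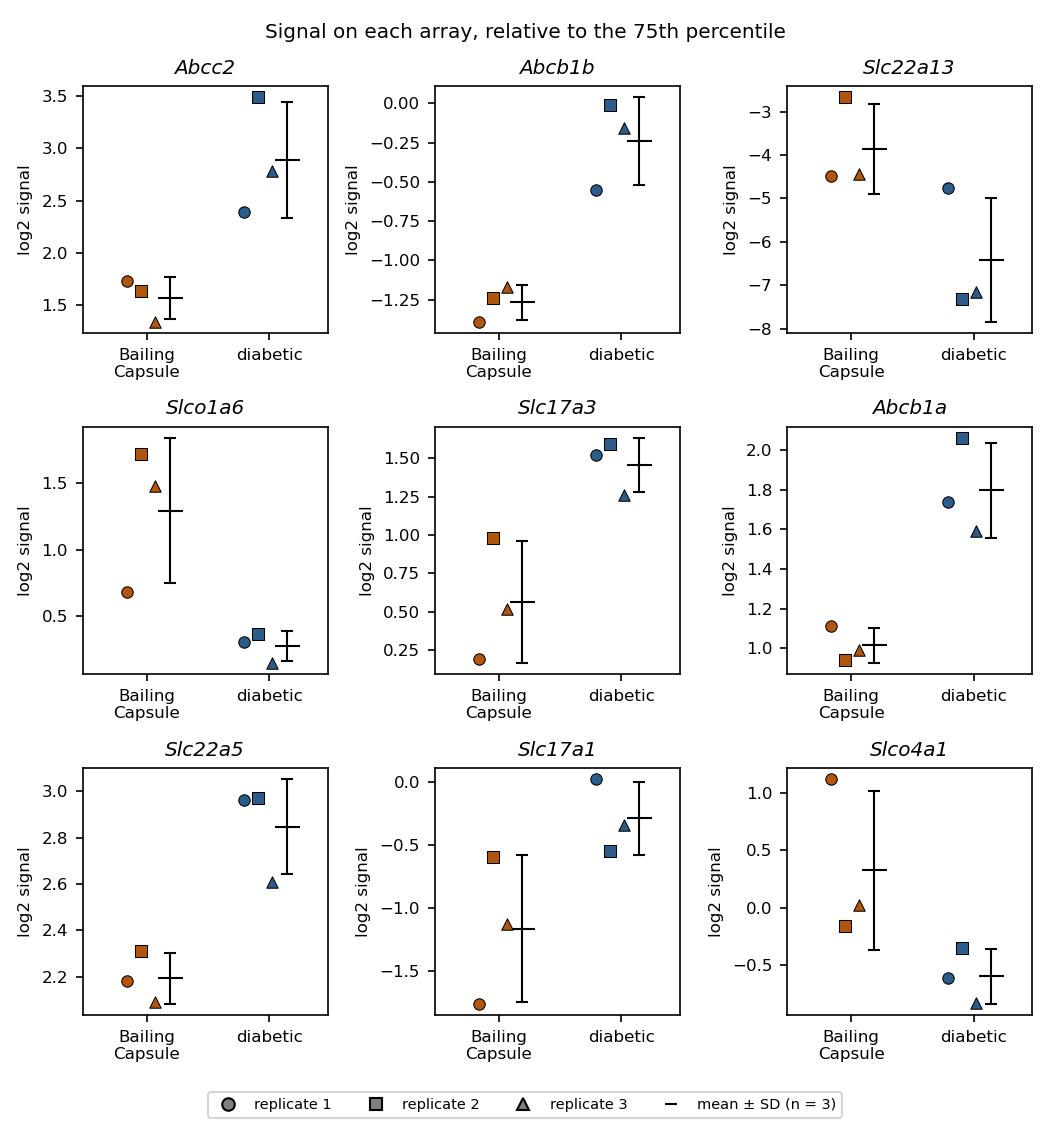
Log2 level of the 9 genes with an unadjusted p under 0.05, with a point per array and each group's mean ± SD beside its points, Bailing Capsule on the left and diabetic on the right of each panel. The groups do not overlap in any of the 9 panels, and 2 of the diabetic values of Slc22a13 are not above background.

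The promoters of these 3 genes are shown because their transcripts have the lowest p-values of the pumps, and that of Slco1a6 because its direction was the opposite. Each runs from 250 bases before to 50 after the RefSeq start in build GRCr8, read 5′ to 3′ on the gene's strand, and capitals mark the GC box (GGGCGG or CCGCCC) and the CCAAT box (CCAAT or ATTGG). Abcc2 lies at chr1:252613625-252613924 on the plus strand, Abcb1b at chr4:26279980-26280279, Abcb1a at chr4:26397599-26397898 and Slco1a6 at chr4:176838983-176839282 on the minus strand.
Abcc2: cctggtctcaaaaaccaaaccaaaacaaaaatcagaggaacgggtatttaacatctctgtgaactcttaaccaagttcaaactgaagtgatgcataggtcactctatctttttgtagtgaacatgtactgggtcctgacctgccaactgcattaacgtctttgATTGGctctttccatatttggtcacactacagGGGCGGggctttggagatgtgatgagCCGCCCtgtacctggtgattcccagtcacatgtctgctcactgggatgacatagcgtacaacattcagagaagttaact
Abcb1b: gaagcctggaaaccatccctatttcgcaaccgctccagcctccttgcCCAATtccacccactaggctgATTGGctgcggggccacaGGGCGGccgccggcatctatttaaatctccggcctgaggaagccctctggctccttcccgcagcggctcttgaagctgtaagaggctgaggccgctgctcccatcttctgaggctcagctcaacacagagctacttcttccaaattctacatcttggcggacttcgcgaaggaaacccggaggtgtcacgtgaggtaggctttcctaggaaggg
Abcb1a: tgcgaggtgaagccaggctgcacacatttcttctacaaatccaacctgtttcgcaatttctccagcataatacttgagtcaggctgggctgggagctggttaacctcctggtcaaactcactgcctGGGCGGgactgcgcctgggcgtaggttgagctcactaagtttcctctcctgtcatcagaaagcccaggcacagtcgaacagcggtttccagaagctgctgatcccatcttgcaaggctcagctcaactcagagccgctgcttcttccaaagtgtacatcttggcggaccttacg
Slco1a6: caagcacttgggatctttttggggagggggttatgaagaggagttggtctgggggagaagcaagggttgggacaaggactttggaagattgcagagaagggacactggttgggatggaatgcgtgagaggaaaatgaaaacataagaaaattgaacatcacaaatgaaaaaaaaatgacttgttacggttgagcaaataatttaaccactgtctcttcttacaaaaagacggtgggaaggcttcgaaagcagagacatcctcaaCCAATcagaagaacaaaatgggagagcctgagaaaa
The Abcc2 window holds 2 GC boxes and 1 CCAAT box, that of Abcb1b 1 GC box and 2 CCAAT boxes, that of Abcb1a 1 GC box, and that of Slco1a6 1 CCAAT box. Of 33469 promoters, 33.1% hold a GC box and 37.5% a CCAAT box on either strand, against 55.3% and 39.5% of the 38 matched member genes. Members were counted by the first promoter listed for each gene. The 33469 promoters were not reduced to 1 per gene, so the shares are of unlike units. The windows of Abcb1a and Abcb1b share the 15 bases tacatcttggcggac and the 14 bases aggctcagctcaac. The nuclear receptor half-site, AGGTCA or TGACCT, occurs 2 times in the Abcc2 window, in 16.2% of all promoters and in 7.89% of the matched members. A match of letters is a description and not a binding site.

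The other tested pumps had smaller differences. These were -0.27 for Abcc6, a pump of liver and kidney, 0.1 for Abcc5 and 0.02 for Abcc4, which export cyclic nucleotides, and -0.09 for Abcc1, a pump of the blood-facing membrane. Abcc4 read 1.61, 1.58 and 1.62 on the Bailing Capsule arrays, against 1.8, 1.61 and 1.35 on the diabetic arrays. A dimmer Abcc4 probe gave 0.44, and another Abcc1 probe 0.42. The 95% interval of Abcc4, -0.52 to 0.56, does not show that the groups are equal. Over the 7 tested pumps of the ABCB and ABCC families the median was -0.27, with 5 below 0. Abcc3, which exports conjugates to the blood, was above background on no array, and Abcb4, a phospholipid transporter of the liver, on the second Bailing Capsule array alone.

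In the listed urate family, the 4 genes above background on all 6 arrays had differences below 0, and none passed the test. Slc22a12 was at 0.15 without the first Bailing Capsule array and 0.01 without the first diabetic array. Carriers of urate outside this family are not counted here. Slc17a3 and Slc17a1, carriers that secrete urate and other organic anions, lie side by side on the chromosome. Slc17a3 had 0.19, 0.98 and 0.52 on the Bailing Capsule arrays, against 1.52, 1.59 and 1.26 on the diabetic arrays. No Bailing Capsule array reached a diabetic one. The difference was -0.9 (SE 0.28, 95% interval -1.51 to -0.28; limma, unadjusted p = 0.00883, adjusted p = 0.326), and -0.96 with the scan as a block. Slc17a1 had -1.76, -0.6 and -1.13 on the Bailing Capsule arrays, against 0.02, -0.55 and -0.34 on the diabetic arrays. The second Bailing Capsule array was just below the lowest diabetic one, so the groups did not overlap. The Slc17a1 difference was -0.87 (limma, unadjusted p = 0.0232, adjusted p = 0.503), and -1.19 with the scan as a block. Abcg2, the urate and drug pump of the brush border, had 4.84, 3.74 and 4.01 on the Bailing Capsule arrays, against 4.48, 5.08 and 4.81 on the diabetic arrays, with overlap and a difference of -0.59, or -0.28 with the scan as a block. Slc22a12, the main urate reabsorber, had a difference of -0.25 (95% interval -1.25 to 0.76), and -0.76 with the scan as a block.

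Slc22a13, a carrier of urate and nicotinate, had a probe that read -4.49, -2.67 and -4.44 on the Bailing Capsule arrays, against -4.77, -7.32 and -7.16 on the diabetic arrays. Only the first diabetic array was above background, so the gene entered the fit through its Bailing Capsule arrays. The fitted difference of 2.55, and 0.91 with the scan as a block, sets detected values against values mostly at background, so it is given with no p-value. A brighter probe of this gene was left out because spots of 1 array in each group were marked as outliers. With those spots kept it gave -0.33 (SE 0.35), the opposite sign, with overlapping groups.

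The 3 uptake carriers for organic anions had differences below 0, apart from Slc22a6 with the scan as a block, and none passed the test. Slc22a8, which takes up drugs and conjugates, had 5.9, 5.75 and 5.49 on the Bailing Capsule arrays, against 6.06, 6.35 and 6.01 on the diabetic arrays. The groups did not overlap, and the difference was -0.43 (95% interval -0.98 to 0.13). Its chromosomal neighbour Slc22a6, which takes up para-aminohippurate-type anions, had 6.85, 5.97 and 6.19 on the Bailing Capsule arrays, against 6.32, 7.16 and 6.65 on the diabetic arrays. These overlapped, with a difference of -0.37, and 0.02 with the scan as a block. Slc22a7, a carrier of organic anions and cyclic GMP, had -3.66, -2.35 and -3.4 on the Bailing Capsule arrays, against -2.78, -2.46 and -2.82 on the diabetic arrays. Its second Bailing Capsule array was the highest of the 6, and the difference was -0.45 (95% interval -1.22 to 0.32).

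Organic cation and carnitine carriers had differences of both signs. Slc22a5, which reclaims carnitine, had 2.18, 2.31 and 2.09 on the Bailing Capsule arrays, against 2.96, 2.97 and 2.61 on the diabetic arrays. Its groups did not overlap, with a difference of -0.65 (SE 0.24, 95% interval -1.2 to -0.11; limma, unadjusted p = 0.0228, adjusted p = 0.498), and -0.77 with the scan as a block. The ergothioneine carrier Slc22a4 had 3.79, 2.65 and 3.46 on the Bailing Capsule arrays, against 3.49, 4.16 and 3.47 on the diabetic arrays, a difference of -0.41 with overlap. The cation uptake carrier Slc22a2 had 4.82, 3.65 and 4.44 on the Bailing Capsule arrays, against 3.72, 4 and 3.76 on the diabetic arrays, a difference of 0.48 with the second Bailing Capsule array the lowest of the 6. The cation exporter Slc47a1 had 0.57, 0.77 and 0.73 on the Bailing Capsule arrays, against 0.92, 0.95 and 0.87 on the diabetic arrays. The groups did not overlap, and the difference was -0.22 (95% interval -0.74 to 0.3). Slc47a2 read -2.82 on the first Bailing Capsule array and -6.94 to -7.96 on the other 5. Urothelium markers summed to 2.05, 0.618 and 0.562 times the 75th percentile signal in Bailing Capsule kidneys, against 0.496, 0.671 and 0.714 times in diabetic kidneys. Of 6 urothelium markers 5 were tested, 4 had positive differences, Krt5 was at -0.49 and Krt20 was above background on no array. The first Bailing Capsule array was the highest for Slc47a2 and for this sum. It was also the highest of the 6 for the sums of proximal tubule, thick limb and distal tubule, leukocyte, blood and adrenal markers. Collecting duct, podocyte, endothelium and liver sums were highest on a diabetic array. The part of any of these markers was not tested. Slc22a3 was above background on no array.

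The 6 tested SLCO genes, carriers of bile acids, hormones and drugs, all had positive differences as reported, though Slco3a1 was at -0.02 with normexp and quantile normalization, and leaving out 1 array took Slco3a1 to -0.29 and Slco1a4 to -0.0047 at the lowest. Their median was 0.42, and 0.63 with the scan as a block, against -0.09 and 0.09 over all features. None passed the test. Slco1a6 had 0.68, 1.72 and 1.48 on the Bailing Capsule arrays, against 0.31, 0.37 and 0.15 on the diabetic arrays. All Bailing Capsule arrays were higher, with a difference of 1.02 (SE 0.3, 95% interval 0.34 to 1.69; limma, unadjusted p = 0.0073, adjusted p = 0.312), and of 0.99 with the scan as a block. Slco4a1, a thyroid hormone carrier, had 1.12, -0.16 and 0.02 on the Bailing Capsule arrays, against -0.61, -0.35 and -0.83 on the diabetic arrays. The groups did not overlap, and the first Bailing Capsule array was the highest. That array also had the highest sums of urothelium markers and of several other marker lists. The Slco4a1 difference of 0.92 (limma, unadjusted p = 0.0249, adjusted p = 0.513) was 0.53 without the first Bailing Capsule array. Slco1a1, a carrier of steroid conjugates, had 3.27, 2.48 and 2.99 on the Bailing Capsule arrays, against 2.41, 2.55 and 2.06 on the diabetic arrays, a difference of 0.57 with overlap (95% interval -0.06 to 1.21). Slco4c1, a carrier of digoxin and thyroid hormone, had a difference of 0.28, Slco1a4 of 0.19 and Slco3a1 of 0.07, with overlapping groups for each. Slco2a1, the prostaglandin carrier, was above background on no array, and Slco2b1 on 1 array.

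**Figure D3:**
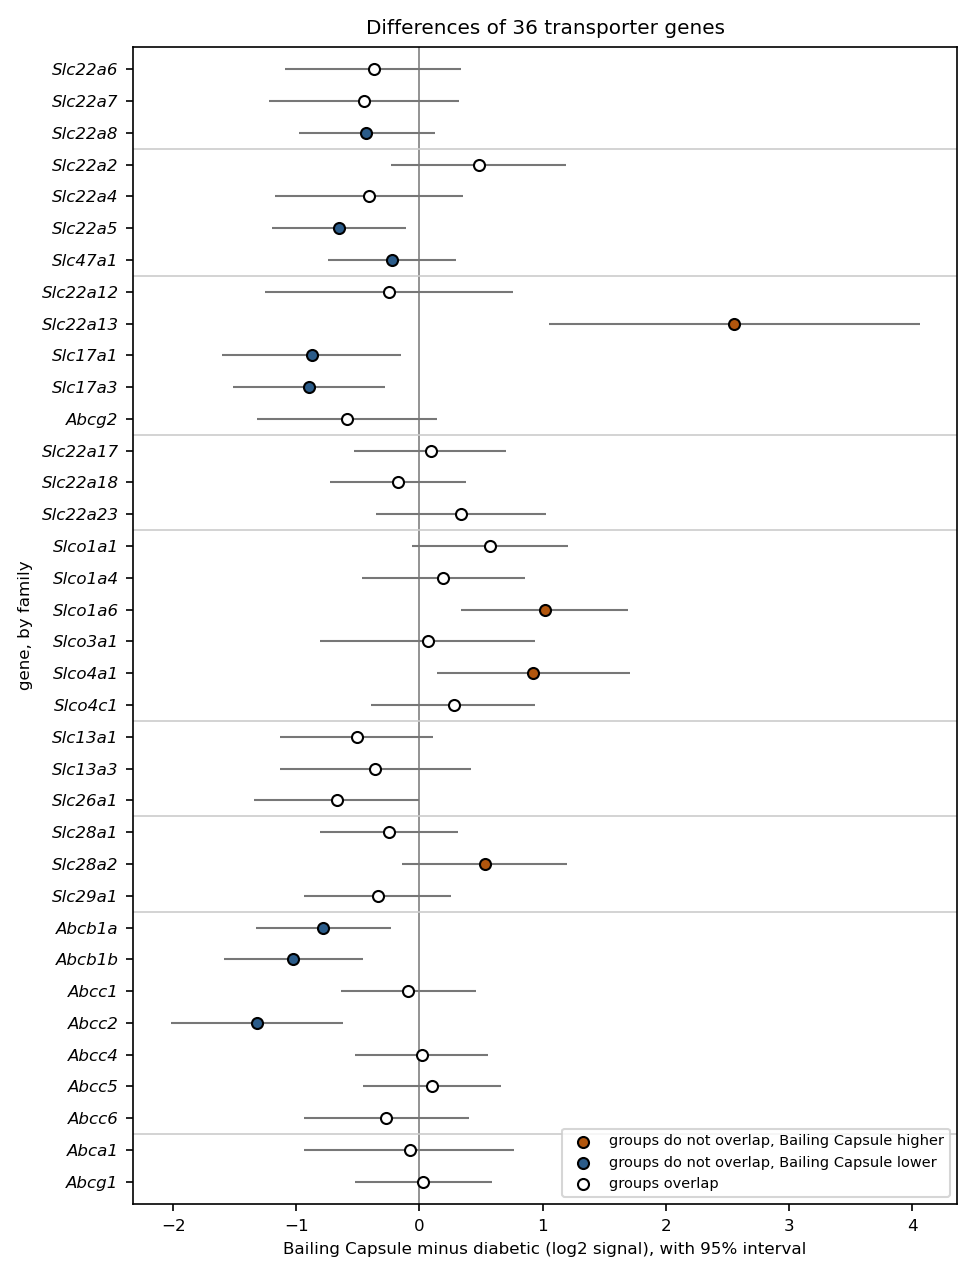
Difference in log2 level, Bailing Capsule minus diabetic, for the 36 tested genes grouped by family, with 95% intervals from limma and filled points where the groups do not overlap. The 6 tested SLCO genes lie above 0 and the 3 organic anion uptake genes below it, though Slco3a1 is at -0.02 with normexp and quantile normalization and Slc22a6 at 0.02 with the scan as a block.

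The 3 tested sulfate and dicarboxylate carriers had differences below 0, though Slc13a3 was at 0.03 with the scan as a block, and none passed. Slc26a1, the sulfate and oxalate exchanger of the blood side, had 5.19, 4.43 and 4.6 on the Bailing Capsule arrays, against 5.25, 5.82 and 5.14 on the diabetic arrays. The first Bailing Capsule array exceeded the lowest diabetic one, with a difference of -0.67 (limma, unadjusted p = 0.0502, adjusted p = 0.662). Slc13a1, which reclaims sulfate, had 4.42, 3.8 and 3.61 on the Bailing Capsule arrays, against 4.38, 4.44 and 4.54 on the diabetic arrays, a difference of -0.51 (95% interval -1.13 to 0.11), and Slc13a3, a dicarboxylate carrier, of -0.36. The citrate carrier Slc13a2 could not be tested, because 3 arrays had outlier spots. The others read 5.62 and 5.66 on 2 Bailing Capsule arrays, and 5.83 on a diabetic array.

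Of the nucleoside carriers, Slc28a2, which carries purine nucleosides, had 3.44, 2.46 and 2.62 on the Bailing Capsule arrays, against 2.42, 2.36 and 2.16 on the diabetic arrays, without overlap and with a difference of 0.53 (95% interval -0.14 to 1.2). A dimmer probe of it gave 1.02 (limma over single probes, unadjusted p = 0.0246, adjusted p = 0.495). Slc29a1, which equilibrates nucleosides across the membrane, had 0.65, 0.82 and 0.46 on the Bailing Capsule arrays, against 0.61, 1.29 and 1.05 on the diabetic arrays, a difference of -0.34 with overlap. Slc28a1, a pyrimidine nucleoside carrier, had a difference of -0.25. The remaining SLC22 members were Slc22a23 at 0.34, Slc22a17, a receptor for lipocalin, at 0.09, and Slc22a18 at -0.17. The cholesterol exporters Abca1 and Abcg1 were at -0.08 and 0.03.

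**Figure D4:**
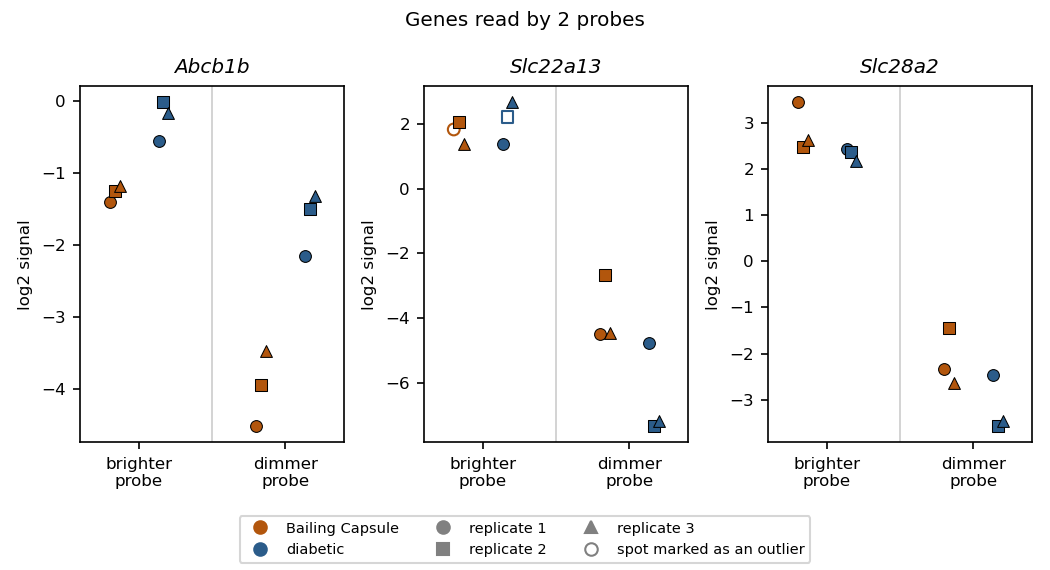
Log2 level on each array for the brighter and dimmer probes of Abcb1b, Slc22a13 and Slc28a2, with a point per array, Bailing Capsule left of diabetic within each probe, and open points for spots marked as outliers. Both Abcb1b probes are lower on the Bailing Capsule arrays. For the brighter Slc22a13 probe the groups overlap, and the dimmer one sets detected Bailing Capsule values against diabetic values mostly at background.

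The second diabetic array was the highest of its group for 26 of the 36 genes, or 72.2%, and for 67.7% of all features. The first Bailing Capsule array was the highest of its group for 15 genes, or 41.7%, and for 55.4% of all features. The median SD between arrays was 0.40 in Bailing Capsule kidneys and 0.25 in diabetic kidneys for the members, and 0.34 in Bailing Capsule kidneys and 0.28 in diabetic kidneys over all features.

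Of 52 other genes of these families 25 were tested and none passed, with 6 positive and 19 negative differences, where 62.1% of all features were negative. Their median was -0.21, and 0.07 with the scan as a block. The smallest p was for Slc26a6, an oxalate exchanger, at -0.8 (limma, adjusted p = 0.382). Of 23 scaffold, regulator and urate enzyme genes 19 were tested and none passed, with a median of -0.03, and 0.22 with the scan as a block. The xenobiotic receptor Nr1i2 had the smallest p there, at -0.7 (limma, adjusted p = 0.677).

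**Figure D5:**
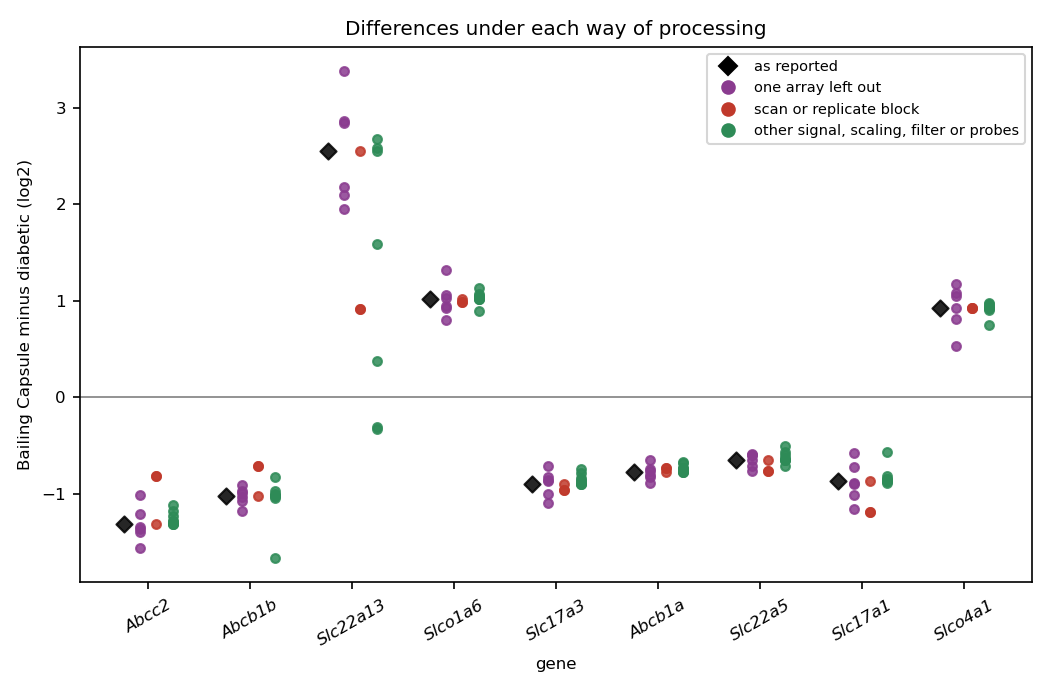
Log2 difference, Bailing Capsule minus diabetic, of the 9 genes with an unadjusted p under 0.05 as reported and under the other processing settings. Slc22a13 crosses 0, and the other 8 keep their sign in the settings drawn.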

How the data were processed

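Kidney RNA of 3 Bailing Capsule and 3 diabetic samples was read on Agilent single-colour arrays. The deposited scanner files hold the intensity of each spot, which Feature Extraction 11.0.1.1 had already background-subtracted, per the file headers. The deposited value table holds log2 values that the authors normalized in a way not given in the sources used here (array medians 5.05 to 5.06).

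Control spots and spots marked as outliers were left out, spots of a probe were averaged as log2, and each array's 75th percentile was subtracted. A probe was kept if at least 50% of its spots were well above background on all 3 arrays of a group. The brightest kept probe stood for its gene. limma 3.58.1 in R 4.3.3 was fitted over 17892 features, with Benjamini-Hochberg adjustment, and was tested on simulated data. The rule for named genes took per-array values for the 20 members with the smallest p. The number of arrays limits the precision. The design had assumed mean signals for the normexp alternative; the files hold median signals, which were used. Members and lists were chosen with earlier results of these data known. Replicate numbers were not taken as pairs, because the labels name no pairing. Correlations of same-numbered deviations were -0.181, -0.14 and 0.0194, which do not decide whether the samples were paired. Promoters come from RefSeq.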

Additional observations from a re-analysis of the deposited data

How the results depend on the processing

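Each result was recomputed under 17 other settings, and with each probe on its own. Of the 36 tested genes 22 kept their sign in all 17, and 2 passed in some. No member passed as reported. Leaving out 1 array gave 0 to 2 members, the 2 being Abcc2 and Slc22a13 without the first diabetic array. Slc22a13 then has no diabetic array above background, so Abcc2 alone is a test of measured values. The groups of that fit come from different scans, so group and scan cannot be told apart in it. Testing each probe on its own, without the scan as a block, gave 1, Abcb1b. The median of the members, -0.23 as reported, was -0.05 with normexp and quantile normalization and -0.05 in the deposited table. Features passing, 57 as reported, numbered 12 with normexp and quantile, 6 with no filter, 9 within the first scan, and 17 to 195 leaving out 1 array. With the replicate number as a block, though the labels name no pairing, 6 features passed. The median of all features, -0.09 as reported, was 0.01 in the deposited table and 0.09 with the scan as a block. Signs turned as follows. Slc22a18 was 0.0031 with normexp, 0.04 with quantile and 0.08 in the deposited table. With normexp Abcc1 was 0.02, Slco3a1 -0.02 and Abcc4 -0.04. Slc22a13 was -0.31 with no filter and -0.33 with outlier spots kept, where its brighter probe is used, and had no value when a probe had to be above background on all arrays. Abcc1 was 0.17 as the mean of its probes. With the scan as a block, and likewise within the first scan, Slc29a1 was 0.03, Slc22a6 0.02, Slc13a3 0.03, Abcc5 -0.19, Abcc1 0.13 and Abcc4 -0.19. Leaving out 1 array in turn, the values spanned 0 for Slc22a12 (-0.66 to 0.15), Slc22a17 (-0.09 to 0.25), Abca1 (-0.33 to 0.4), Slco3a1 (-0.29 to 0.37), Abcc1 (-0.2 to 0.0076), Abcg1 (-0.1 to 0.17), Slco1a4 (-0.0047 to 0.43), Abcc5 (-0.03 to 0.25) and Abcc4 (-0.1 to 0.12). Other causes were not tested. Dim probes near background limit Slc22a13, and 3 arrays a group limit all.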
